A study of Mus musculus with 14 samples.

Results

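The genes described here are the nuclear-encoded subunits of the oxidative phosphorylation system of mitochondria. They were picked by a rule on symbols that used no measured value, though the choice was made with earlier results of these data known. The rule took Ndufa, Ndufb, Ndufc, Ndufs and Ndufv genes for complex I and Sdha, Sdhb, Sdhc and Sdhd for complex II. It also took Uqcr genes for complex III, Cox4 to Cox8 genes for complex IV and Atp5 genes for complex V. The isoforms Cox7a1, Cox8b and Cox8c, which are known from muscle, brown fat or testis, were left out. The rule found 82 of the 21853 genes of the table, 37 in complex I, 4 in complex II, 8 in complex III, 15 in complex IV and 18 in complex V. The 82 genes carry 81 symbols, because Atp5o names 2 identifiers. The grouping follows the symbols, so Ndufa4, which is now counted as a subunit of complex IV, stands with complex I, and Cox7a2l, an assembly factor of respiratory supercomplexes, stands with complex IV.

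The values came from bulk RNA-seq of the ovary and the uterus of female C57BL/6J mice, 28 weeks old, in 2 groups. The 4 OT mice (OT1 to OT4, "old treatment") received AMSC-CM, medium conditioned by mesenchymal stem cells of the human amniotic membrane and mixed from cells of 3 donors, through the tail vein at 1 µL per g of body weight, 6 times at intervals of 4 d. The 3 OC mice (OC1 to OC3, "old control") received normal saline by intravenous injection. Mice of both groups had first been given pregnant mare serum gonadotropin and human chorionic gonadotropin, 10 IU each and 48 h apart, so no group was free of exogenous gonadotropins. The labels number 1 ovary library and 1 uterus library for each of 7 mice, which makes 14 libraries in 4 groups, and libraries of the same group and number were taken to come from the same mouse. In whole tissue, more cells of a type and more RNA per cell cannot be told apart.

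All values are FPKM, fragments per length of transcript and per number of mapped fragments, so levels of different genes can be compared per length. The 75th percentile was 15.35 to 15.82 FPKM in all 14 libraries, although their totals ran from 374816 to 577494 FPKM. The deposited values may thus have been scaled between libraries, which was not tested. Such scaling would itself hold the median change of all genes near 0. The number of fragments behind a value is unknown. As a rough guide to depth, genes with low values in both the OC1 ovary and another library were compared. The median ratio, OC1 ovary over the other library, was 0.85 to 1.18. It is limited by the cutoff on both libraries and by differences in expression, so it does not show equal depth. The libraries fitted their labelled tissue: 5 steroidogenic genes summed to 5168 to 6451 FPKM in the 7 ovaries and to 6.28 to 11.98 FPKM in the uteruses, and 4 uterine genes summed to 344 to 573 FPKM in the uteruses and to 53.8 to 158 FPKM in the ovaries. One library stood apart in what follows. The OT1 uterus held 210 FPKM of Ucp1, the uncoupling protein that defines brown adipocytes, against at most 0.112 FPKM in every other library, so the main uterus results are also given without it.

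Oxidative phosphorylation turns the electrons of NADH and succinate into ATP. Complexes I (NADH dehydrogenase) and II (succinate dehydrogenase) pass electrons to ubiquinone, complex III (cytochrome bc1) hands them to cytochrome c, and complex IV (cytochrome c oxidase) reduces oxygen, while the proton gradient made on the way drives complex V (ATP synthase). The core of every complex but II also contains subunits encoded in mitochondrial DNA, which are not analysed here. In the ovary, mitochondria also supply the side-chain cleavage of cholesterol in steroid-forming cells, and the oocyte is known for its large stock of mitochondria.

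The members were among the abundant transcripts of both tissues. The median member stood at 88.9 FPKM in OC ovaries and at 85.9 FPKM in OC uteruses, against 10.9 and 11.4 FPKM for the median of all genes with at least 0.5 FPKM in those groups. Together they made up 2.35% to 2.46% of the total FPKM of the OC ovaries and 1.98% to 2.24% of that of the OC uteruses. The highest member in OC ovaries was Atp5b, the catalytic beta subunit of ATP synthase, at 438 ± 21.3 FPKM (SD, n = 3). It was followed by Cox4i1, the ubiquitous subunit 4 of cytochrome c oxidase, at 404 ± 19.8 FPKM (SD, n = 3), which was below Atp5b in each of the 3 libraries. In OC uteruses Cox6c, a small subunit of complex IV, led at 458 ± 46.7 FPKM (SD, n = 3), with a range that overlapped that of Cox4i1 at 439 ± 29.2 FPKM (SD, n = 3).

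Levels differed by complex. In OC ovaries the median was 70.5 FPKM over the 37 genes of complex I, 84.1 over the 4 of complex II, 105 over the 8 of complex III, 133 over the 15 of complex IV and 147 over the 18 of complex V. In OC uteruses the order of these medians was the same, at 57.6, 64.3, 101, 132 and 139 FPKM. No gene of complex I exceeded 300 FPKM in OC ovaries, whereas 4 of complex IV and 3 of complex V did. In complex I the highest mean over the 14 libraries belonged to Ndufa4 (205 FPKM) and the lowest to Ndufa4l2 (7.71 FPKM), its hypoxia-induced paralog. In complex II these were Sdhd, a membrane anchor, and Sdhc, the other membrane anchor, and in complex III Uqcrh, the hinge protein, and Uqcrc2, a core protein. In complex V, among the members tested, they were Atp5b (449 FPKM) and Atp5s (9.53 FPKM), a coupling factor outside the catalytic core.

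Several members were at or near 0. Cox7b2, a testis paralog of Cox7b, was listed at 0 in all 14 libraries. The muscle isoform Cox6a2 lay between 0 and 1.29 FPKM and was at 0 in 5 of 14 libraries, and the second Atp5o identifier did not exceed 0.973 FPKM. A gene was tested where its mean over the libraries of the fit reached 0.5 FPKM, which kept 80 of the 82 members for the ovary, 79 for the uterus and 79 in the fit of both tissues.

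Since the members were compared as a group, the sequence upstream of their genes was read for shared letters. Promoter windows of 250 bases before to 50 bases after the gene start were taken from RefSeq on build GRCm38.p6, where 64 of the 81 symbols had a window. Searched on both strands, the letters GCGCNTGCG, a core of the site of nuclear respiratory factor 1 (NRF1), were in the windows of 23 of 64 members (35.9%) and of 7.12% of all 27025 symbols. The letters CCGGAAG of ETS factors such as the nuclear respiratory factor GABP were found for 16 members (25.0%; 9.93% of all symbols), AAGATGGCG of YY1 for 7 (10.9%; 1.64%) and TCAAGGTCA of the estrogen-related receptors for 2 (3.13%; 0.466%). At least 1 of the 4 was present for 38 members (59.4%) and for 17.0% of all symbols, while the median share of G and C in the windows was 57.3% for members and 52.7% for all. By complex, the NRF1 letters were found for 9 of 32 members with a window in complex I, 2 of 3 in complex II, 3 of 5 in complex III, 1 of 11 in complex IV and 8 of 13 in complex V. These are matches of letters in a fixed window and not measured sites.

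The 250 bases upstream of a RefSeq start in each of 5 members are printed 5′ to 3′ on the strand of the gene. Matches to the 4 searched motifs are in capitals. The first 3 are the genes of ATP synthase subunit c, which encode the same mature ring protein from different chromosomes, and the other two were chosen after the values were seen, as the member with the largest fold in the OT1 uterus (Ndufb4) and an abundant one without a higher level there (Cox7a2l). All lie on the minus strand of GRCm38.p6: Atp5g1 at chr11:96075632-96075881, Atp5g2 at chr15:102671048-102671297, Atp5g3 at chr2:73911327-73911576, Ndufb4 at chr16:37654369-37654618 and Cox7a2l at chr17:83514334-83514583.
Atp5g1: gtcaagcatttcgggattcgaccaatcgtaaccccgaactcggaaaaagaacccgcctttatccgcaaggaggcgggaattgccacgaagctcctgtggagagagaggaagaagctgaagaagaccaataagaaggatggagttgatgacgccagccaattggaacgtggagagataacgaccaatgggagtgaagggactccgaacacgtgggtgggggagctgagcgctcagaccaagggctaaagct
Atp5g2: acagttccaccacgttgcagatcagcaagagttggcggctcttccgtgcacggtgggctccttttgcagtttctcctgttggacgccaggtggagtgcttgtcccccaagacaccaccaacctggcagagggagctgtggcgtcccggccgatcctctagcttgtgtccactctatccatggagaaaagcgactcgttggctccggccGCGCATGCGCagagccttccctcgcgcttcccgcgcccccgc
Atp5g3: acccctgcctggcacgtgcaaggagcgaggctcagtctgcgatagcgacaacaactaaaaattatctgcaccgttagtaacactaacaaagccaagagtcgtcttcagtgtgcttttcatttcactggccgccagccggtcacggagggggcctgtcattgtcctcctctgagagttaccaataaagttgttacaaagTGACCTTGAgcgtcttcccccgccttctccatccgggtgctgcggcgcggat
Ndufb4: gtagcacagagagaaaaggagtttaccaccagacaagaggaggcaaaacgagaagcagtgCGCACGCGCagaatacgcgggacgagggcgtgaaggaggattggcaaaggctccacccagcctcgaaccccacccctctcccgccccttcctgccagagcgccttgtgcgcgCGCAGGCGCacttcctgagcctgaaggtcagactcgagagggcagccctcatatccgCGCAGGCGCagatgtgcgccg
Cox7a2l: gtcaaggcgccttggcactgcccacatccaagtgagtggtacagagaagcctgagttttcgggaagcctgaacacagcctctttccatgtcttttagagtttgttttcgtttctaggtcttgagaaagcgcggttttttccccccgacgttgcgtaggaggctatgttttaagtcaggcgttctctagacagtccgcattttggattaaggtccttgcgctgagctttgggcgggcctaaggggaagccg
The window of Atp5g1 held none of the searched letters, that of Atp5g2 a pair of overlapping NRF1 matches, and that of Atp5g3 an estrogen-related receptor match. A further NRF1 match of Atp5g3 began 12 bases after its start and is not printed. The window of Ndufb4 held 3 NRF1 matches and that of Cox7a2l none of the searched letters. For Atp5g2 and Cox7a2l the window lies wholly inside the gene span of GENCODE M21, which reaches to chr15:102672352 and chr17:83517330.

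The first comparison asked whether AMSC-CM changed the members in the ovary, and there they stood almost level. The summed FPKM of the 82 members was 9493, 9284 and 9578 in OC1 to OC3 and 9055, 9999, 9276 and 9586 in OT1 to OT4, so the OT range enclosed the OC range. Over the 80 members tested the median log2 fold change of OT over OC was 0.004, against -0.011 over all 14415 genes tested. By complex the medians were 0.005, 0.048, 0.028, -0.041 and -0.005 from complex I to complex V.

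**Figure D1:**
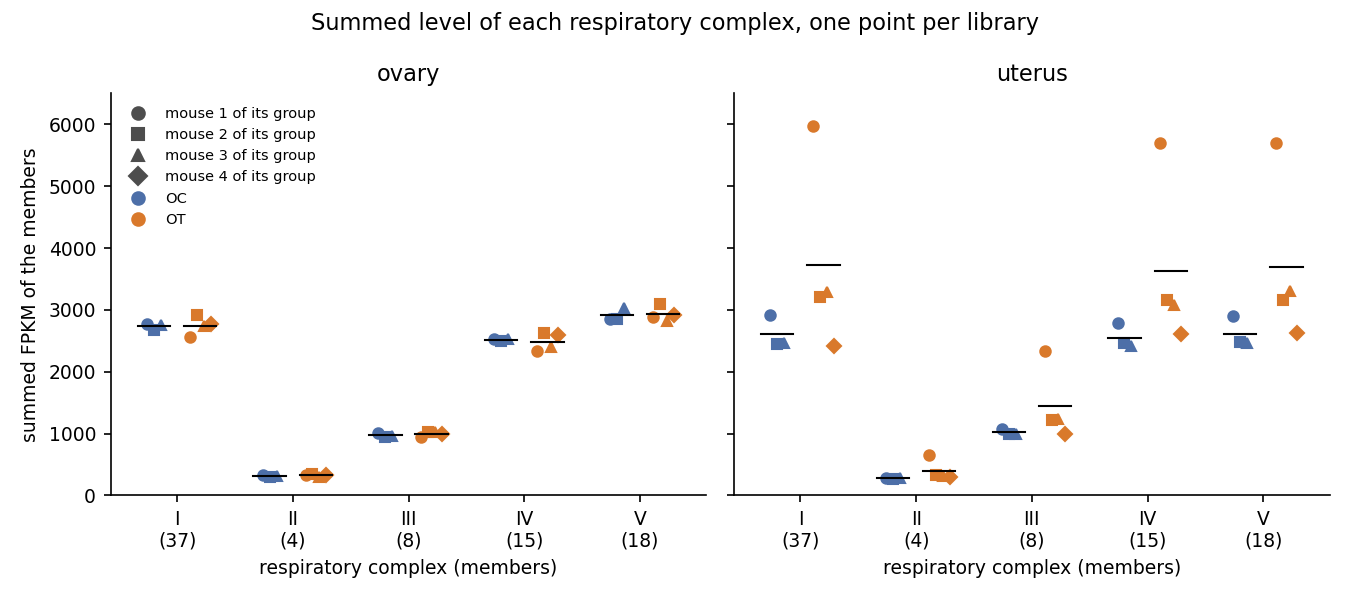
Summed FPKM of the members of each respiratory complex in the ovary (left) and the uterus (right). Each point is a library, its shape gives the number of the mouse, and the line is the group mean. In the ovary OC and OT points lie together in every complex, whereas in the uterus the OT1 library stands above the others, at 5972 FPKM for complex I.

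In the ovary 3 members rose at an unadjusted p of at most 0.05 by limma (3.75% of those tested, against 2.6% of all genes tested) and 1 fell (1.25%, against 1.91%). None of them had an adjusted p under 0.05 by limma, and the smallest adjusted p of a member was 0.997. No member passed the DEG cutoffs of the study, a log2 fold change of 1 or more in either direction at an unadjusted p of 0.05 or less. The groups did not overlap for 2 members with all OT libraries above all OC libraries (2.78% of all genes tested) and for 1 with all below (3.13% of all genes tested).

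The member that fell was Cox4i2, the isoform of subunit 4 known from lung and from the response to low oxygen. Its level was 6.24, 5.23 and 5.45 FPKM in OC1 to OC3 and 4.59, 3.30, 2.36 and 2.82 FPKM in OT1 to OT4. Every OT ovary lay below every OC ovary, and the log2 fold change was -0.81 ± 0.22 (SE; unadjusted p = 0.0052, adjusted p = 0.997 by limma). Across the 15 alternative settings the fold change stayed between -0.98 and -0.66 with an unadjusted p between 0.000465 and 0.0229 by limma. Its partner Cox4i1 was not called and lay between 381 and 436 FPKM in the 7 ovaries, so Cox4i2 made up 1.38 ± 0.10% of the summed FPKM of the pair in OC ovaries (SD, n = 3) and 0.776 ± 0.23% in OT ovaries (SD, n = 4).

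The 3 members that rose did so by little. Cox7a2, the form of subunit 7a made in most tissues, was at 133, 137 and 126 FPKM in OC ovaries and at 143, 156, 140 and 156 FPKM in OT ovaries, without overlap (log2 fold change 0.17 ± 0.07 (SE), unadjusted p = 0.0369 by limma). Ndufa9, a complex I subunit near the ubiquinone site, was at 29.9, 30.9 and 32.2 FPKM in OC ovaries and at 35.7, 37.0, 33.6 and 32.5 FPKM in OT ovaries, also without overlap (0.16 ± 0.07 (SE), unadjusted p = 0.0433 by limma). Uqcrq, a small complex III subunit that binds ubiquinone, was at 77.0, 65.8 and 70.0 FPKM in OC ovaries and at 87.7, 74.3, 89.7 and 80.5 FPKM in OT ovaries, where OT2 lay inside the OC range (0.23 ± 0.09 (SE), unadjusted p = 0.0284 by limma). Each of these calls was lost in 5 to 8 of the 15 alternative settings, and none of the 3 was called in a fit of all 14 libraries.

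The remaining members with the smallest p in the ovary did not pass. On the higher side were Atp5g1 (log2 fold change 0.20 ± 0.10) and the membrane-arm subunit Ndufb5 (0.13 ± 0.07), and on the lower side Cox7c (-0.17 ± 0.08), the peripheral ATP synthase subunit g gene Atp5l (-0.17 ± 0.08), Atp5g2 (-0.20 ± 0.10) and Ndufa8 (-0.11 ± 0.08; each ± SE). Markers of white adipocytes differed between ovaries of similar member levels. The summed FPKM of 10 white adipocyte genes was 244 to 362 in OC ovaries and 1918, 1426, 291 and 483 in OT1 to OT4, while the share of the total FPKM held by the members was 2.38% to 2.51% in OT ovaries.

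**Figure D2:**
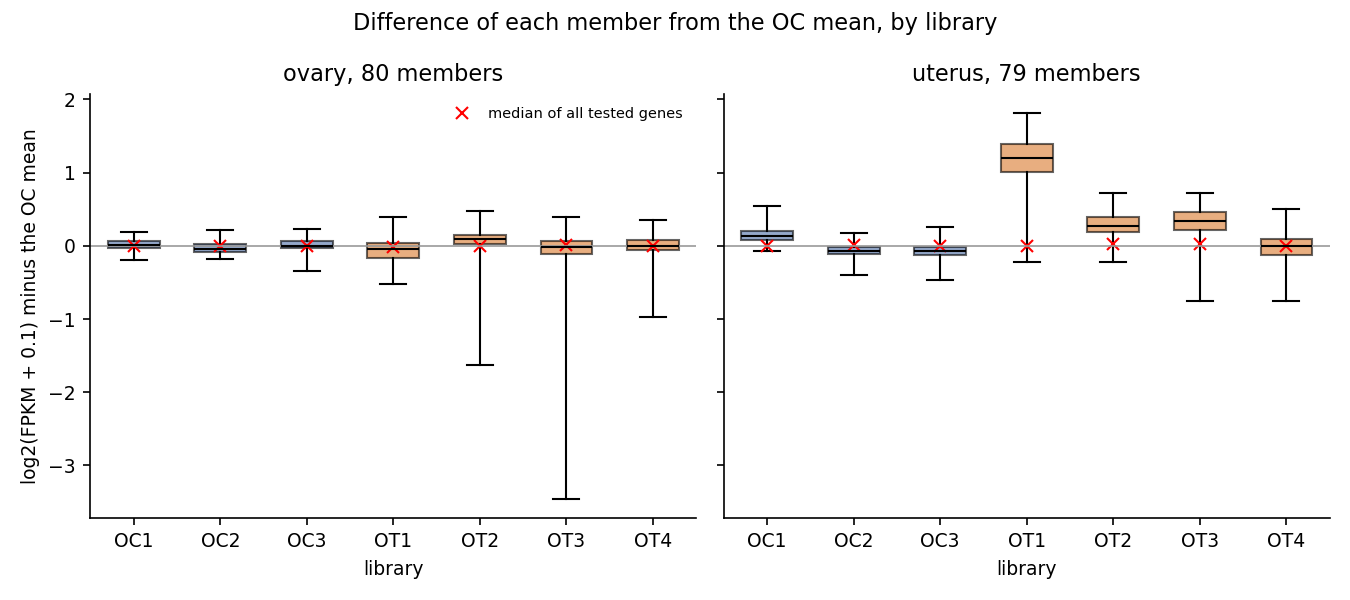
Difference of each tested member from the mean of the OC libraries on the log2(FPKM + 0.1) scale, by library, with 80 members in the ovary (left) and 79 in the uterus (right). Boxes show the quartiles and the median, whiskers reach the lowest and highest member, and red crosses mark the median of all tested genes. The boxes of the ovary stay near 0, and in the uterus the medians of OT1, OT2 and OT3 are 1.21, 0.27 and 0.33 while that of OT4 is near 0.

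In the uterus the members were higher in 3 of 4 OT libraries than in OC, by an amount that differed between the mice. Their summed FPKM was 9970, 8642 and 8609 in OC1 to OC3 and 20358, 11080, 11240 and 8921 in OT1 to OT4. OT1 was above 2-fold of every OC uterus, OT2 and OT3 were above all OC uteruses by less, and OT4 lay within the OC range. The total FPKM of all genes also differed, at 430753 to 445048 in OC uteruses and 577494, 471907, 466825 and 425875 in OT1 to OT4. As a share of that total the members held 3.53%, 2.35%, 2.41% and 2.09% in OT1 to OT4, against 1.98% to 2.24% in OC uteruses. The median fold of a member over the OC mean was 2.29 for OT1, 1.21 for OT2, 1.25 for OT3 and 0.994 for the OT4 uterus. The median of all tested genes differed from the OC mean by between -0.006 and 0.028 on the log2 scale in the same 4 libraries. Above all 3 OC uteruses stood 75 of 79 members in OT1 (94.9%, against 40.1% of all tested genes), 64 for OT2 (81.0%, against 32.3%), 65 for OT3 (82.3%, against 34.6%) and 16 for OT4 (20.3%, against 24.3%).

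Few single members passed the test. Of the 79 tested, 4 rose in OT uteruses (unadjusted p of 0.05 or less by limma) (5.06%), close to the 5.15% of all 14151 genes tested, and none fell (3.05% of all genes tested). None had an adjusted p under 0.05 by limma (smallest 0.550), and no member passed the DEG cutoffs, which 2.23% of all genes tested passed in the higher direction. The median log2 fold change over the members was 0.44, against 0.01 over all genes, and 76 of 79 values were above 0. With each library scaled to the same total FPKM these medians were 0.30 and -0.13. In that setting 6 members rose (7.59%, against 3.6% of all genes tested). Scaling by the median ratio gave 3 (3.8%, against 4.83%). All OT uteruses lay above all OC uteruses for 14 of 79 members (17.7%, against 6.46% of all genes tested), and for no member did all lie below (5.48%). With OT1 left out 14 of 79 lay above (against 8.83% of all genes tested) and none below. Leaving out a library can only keep or raise such counts, so this does not show independence from OT1.

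The counts depended on the libraries. Without OT1 the median log2 fold change was 0.21 and 10 of 79 members rose (12.7%, against 5.98% of all genes tested). Without OT4 33 members rose (41.8%, against 7.97% of all genes), with a median of 0.60, and without OT3 1 rose (1.27%, against 3.92%). None was called without OC2 or without OC3, where 2.98% and 2.91% of all genes were called higher. A fit of all 14 libraries, in which ovaries share in the estimate of the spread, called 38 (48.1%, against 9.49% of all genes).

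The 4 members that rose came from complexes V and IV. Atp5d, the delta subunit of the rotating central stalk of ATP synthase, was at 119 (OC1), 112 (OC2) and 107 (OC3) FPKM and at 229, 145, 153 and 140 FPKM in OT1 to OT4. All OT values were above all OC values, and the log2 fold change was 0.53 ± 0.19 (SE; unadjusted p = 0.0213, adjusted p = 0.550 by limma). Atp5g2 was at 68.6, 72.1 and 75.5 FPKM in OC uteruses and at 95.7, 100.3, 100.1 and 76.7 FPKM in OT uteruses (0.36 ± 0.13 (SE), unadjusted p = 0.0267 by limma). Here OT1 was not the highest library, and the value without OT1 was 0.35. Atp5k, the gene of the small subunit e at the dimer interface, was at 260, 216 and 201 FPKM in OC uteruses and at 560, 310, 293 and 269 FPKM in OT uteruses (0.61 ± 0.26 (SE), unadjusted p = 0.0470 by limma). Cox5a, a subunit of complex IV, was at 86.4, 65.0 and 66.8 FPKM in OC uteruses and at 186, 88.6, 110 and 92.5 FPKM in OT uteruses (0.66 ± 0.26 (SE), unadjusted p = 0.0377 by limma).

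Atp5l had the next smallest p and did not pass, at 44.1, 38.0 and 27.6 FPKM in OC uteruses and 102, 47.4, 59.3 and 41.9 FPKM in OT uteruses (0.71 ± 0.31 (SE), unadjusted p = 0.0516 by limma). Below 0 were Cox4i2 (-0.11 ± 0.36), Atp5s (-0.04 ± 0.16) and Cox6b2 (-0.02 ± 0.22; each ± SE), none of which passed, and each changed sign when certain single mice were left out.

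The log2 fold change without OT1 was 0.37 ± 0.09 for Atp5d, 0.37 ± 0.13 for Atp5k, 0.42 ± 0.14 for Cox5a and 0.45 ± 0.20 for Atp5l (each ± SE).

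Without OT1 the 4 members called with all mice passed together with 6 others at an unadjusted p of at most 0.05 by limma. From complex I these were Ndufb5, Ndufv3, a small subunit of the flavoprotein module, and Ndufs5, a subunit facing the intermembrane space, with log2 fold changes of 0.26 ± 0.11, 0.36 ± 0.15 and 0.43 ± 0.14 (SE). Complex II added Sdhd (0.24 ± 0.10 (SE)), and complex III added Uqcrc1, a core protein (0.33 ± 0.12 (SE)), and Uqcrq (0.40 ± 0.14 (SE)). None of the 10 had an adjusted p under 0.05 by limma, and the smallest was 0.320.

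**Figure D3:**
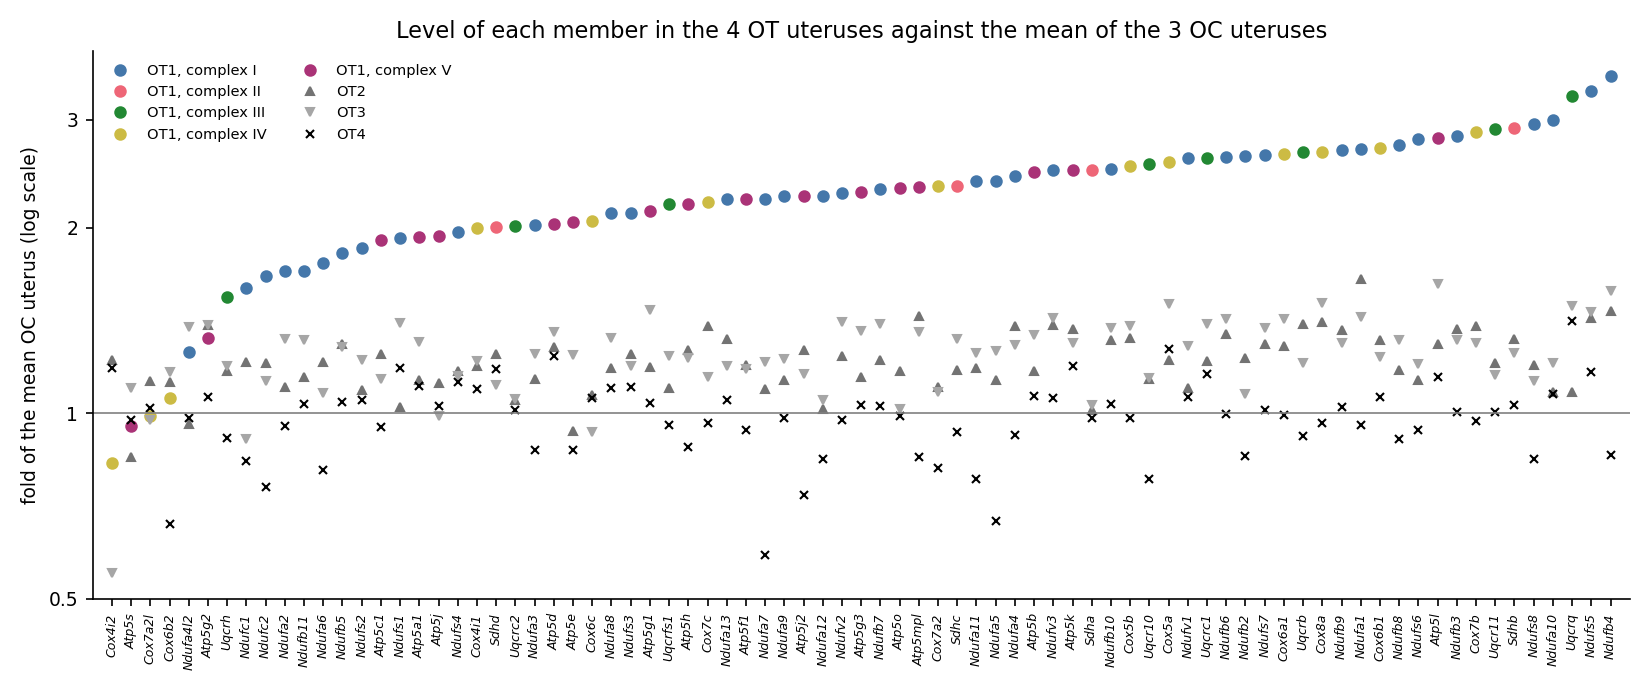
Fold of each of the 79 tested members over the mean of the 3 OC uteruses, on a log axis, in the order of the fold in OT1. Coloured points give OT1 by complex, triangles OT2 and OT3, and crosses OT4. From Ndufb4 (3.54-fold) down to Ndufa4l2 (1.26-fold) the OT1 points lie above 1.2, and the 3 at or below 1 are Cox7a2l, Atp5s and Cox4i2.

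The higher levels in the OT1 uterus ran through all 5 complexes with few exceptions. The median fold over the OC mean was 2.31 in complex I, 2.41 in complex II, 2.57 in complex III, 2.34 in complex IV and 2.19 in complex V, and 73 of 79 members exceeded 1.5-fold. The largest folds were those of Ndufb4, a membrane-arm subunit of complex I (46.3 FPKM in OT1 against 13.1 ± 1.14 in OC, SD, n = 3), Ndufs5 (97.5 against 29.2 ± 3.76) and Uqcrq (222 against 67.7 ± 6.10). Sdhb, the iron-sulfur subunit of succinate dehydrogenase, was at 139 FPKM against 47.8 ± 6.31 (SD, n = 3), and Cox7b at 202 against 70.7 ± 3.84 (SD, n = 3). The 6 members at or under 1.5-fold were Atp5g2 (1.33-fold), Ndufa4l2 (1.26), Cox6b2 (1.06), Cox7a2l (0.991), Atp5s (0.952) and Cox4i2 (0.830). Apart from Atp5g2 and Cox7a2l these stood under 20 FPKM in every group, and Ndufa4l2, Cox6b2 and Cox4i2 are paralogs of members that were higher there.

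In OT2 and OT3 the folds were smaller and spread over the same complexes. By complex the medians lay between 1.15 and 1.22 in OT2 and between 1.18 and 1.30 in OT3. The highest member was Ndufa1, a complex I subunit encoded on the X chromosome, in OT2 (1.65-fold) and Atp5l in OT3 (1.62-fold). In OT4 the medians lay between 0.981 and 1.03, from 0.590-fold for Ndufa7 to 1.41-fold for Uqcrq.

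Genes of other cell types also differed between OC and OT uteruses, in an order of libraries that was not always that of the members. The 10 white adipocyte genes summed to 110 to 304 FPKM in OC uteruses and to 12023, 1345, 2421 and 1321 FPKM in OT1 to OT4, and all 10 of 10 lay in every OT uterus above every OC uterus. The 9 brown adipocyte genes summed to 37.1 to 48.7 FPKM in OC uteruses, to 736 FPKM in OT1 and to 18.9, 27.3 and 42.0 FPKM in OT2 to OT4. In OT1 this list held Cox8b at 340 FPKM, Ucp1 at 210, Cox7a1 at 72.9 and Cidea at 70.5, while Zic1 was at 0 in all 14 libraries. Of its 8 genes tested for OT against OC, 7 had a log2 fold change above 0, and none of these passed. Dio2 was lower in OT uteruses and did pass (-1.17, unadjusted p = 0.00779 by limma). Smooth muscle genes (6) summed to 5297 to 6295 FPKM in OC and to 8663, 6806, 10255 and 6615 FPKM in OT1 to OT4, and 7 genes of stratified epithelium to 2.47 to 12.3 FPKM in OC and to 218, 42.3, 714 and 355 FPKM in OT1 to OT4. The 4 uterine genes summed to 516 to 573 FPKM in OC uteruses and to 344, 399, 453 and 475 FPKM in OT1 to OT4. All OT uteruses were above all OC uteruses for 3 of the 6 smooth muscle genes and 5 of the 7 genes of stratified epithelium, and below them for 3 of the 4 uterine genes. OT4, with a white adipocyte sum close to that of OT2, had members at the OC level. The 5 stroma genes summed to 4371 to 4515 FPKM in OC uteruses and to 5912, 5434, 5587 and 4269 FPKM in OT1 to OT4, so OT1 to OT3 were above the OC range and OT4 below it. None of the 5 was above all OC uteruses in all OT uteruses, and 1 was below. The part of these cells in the members' values was not tested.

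**Figure D4:**
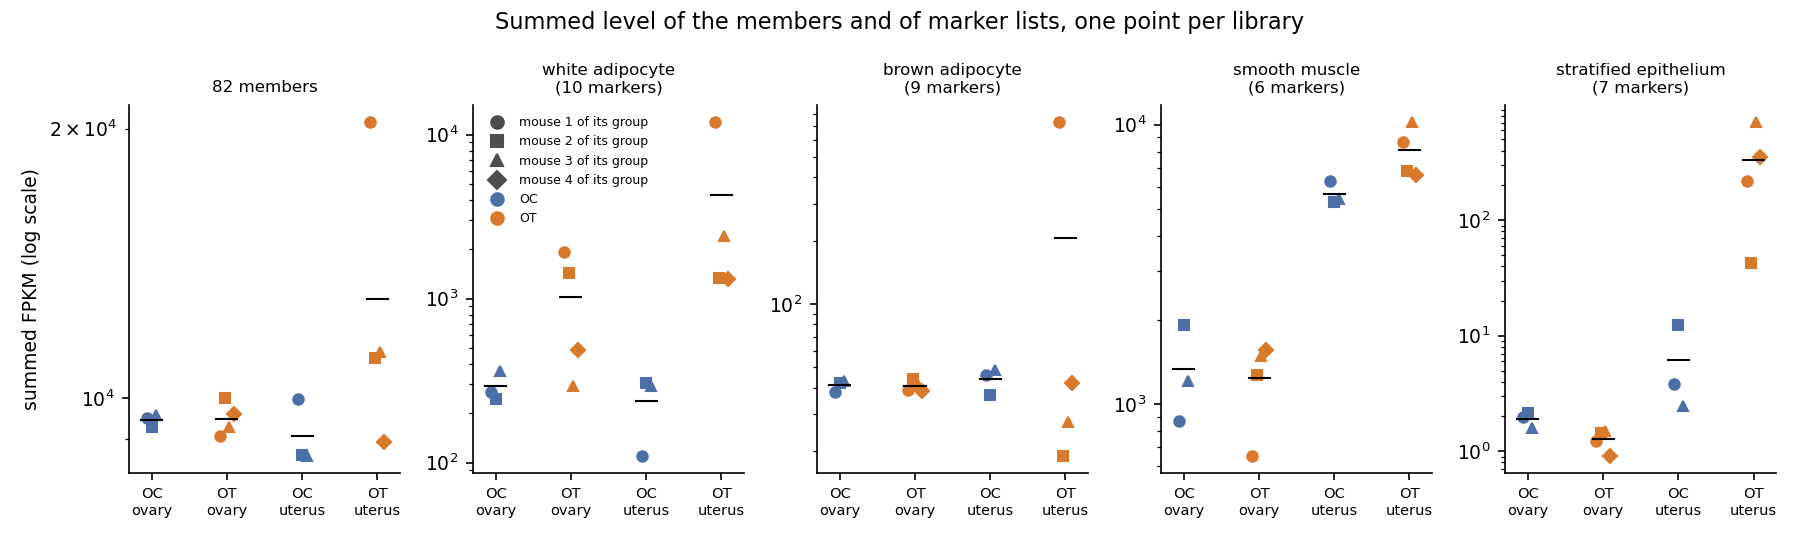
Summed FPKM of the 82 members and of 4 marker lists in every library, each on its own log axis. Points are libraries with the shape giving the number of the mouse, and lines are group means. The OT1 uterus is the highest library for the members (20358 FPKM), the white adipocyte genes (12023) and the brown adipocyte genes (736), and all 4 OT uteruses exceed all OC uteruses for white adipocyte, smooth muscle and stratified epithelium genes.

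Whether the OT effect differed between uterus and ovary was tested in 1 fit of all 14 libraries. The median difference over the 79 members, uterus minus ovary, was 0.45 on the log2 scale, against 0.02 over all 14557 genes tested. By limma, 6 members at an unadjusted p of 0.05 or less had a larger effect in the uterus (7.59%, against 3.22% of all genes tested) and none a smaller one (1.9% of all genes tested). No member had an adjusted p under 0.05 by limma (smallest 0.844). The 6 were Atp5g2 (0.57 ± 0.17), Atp5d (0.57 ± 0.20), Atp5l (0.88 ± 0.35), Ndufa8 (0.59 ± 0.26), Ndufb11 (0.43 ± 0.20) and Cox5a (0.64 ± 0.29; each ± SE). Cox6b2 (-0.27 ± 0.29) and Atp5s (-0.20 ± 0.24; each ± SE) had the smallest p on the other side, and neither passed. With the mouse as a replicate block 4 members were called (5.06%, against 3.7% of all genes), and Ndufb11 (unadjusted p = 0.0814 by limma) and Cox5a (0.071) were not among them. Without OT1 7 members were called (8.86%, against 3.47% of all genes) with a median difference of 0.19. Without OT4 31 were called (39.2%, against 5.27%), without OC2 3 (3.8%, against 2.09%) and without OC3 1 (1.27%, against 1.77%). Equal totals gave 9 (11.4%, against 1.85%) and scaling by the median ratio 5 (6.33%, against 3.14%).

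The uterus and the ovary of the OC mice gave members at similar levels with some exceptions. The median log2 fold change, uterus over ovary, was -0.07 over the 79 members and -0.01 over all genes tested. At an adjusted p under 0.05 by limma 2 members were higher in the uterus (2.53%, against 17.2% of all genes tested) and 6 were lower (7.59%, against 18.8%). With the mouse as a replicate block the counts stayed at 2 and 6, but Ndufa6 (adjusted p = 0.0539 by limma) and Ndufa4l2 (0.0709) were no longer called, and Atp5g3 (0.0353) and Sdhb (0.0369) were.

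Cox4i2 differed most, at 5.64 ± 0.53 FPKM in OC ovaries and 1.40 ± 0.34 FPKM in OC uteruses (SD, n = 3 each; log2 fold change -1.96 ± 0.31 (SE), adjusted p = 0.000315 by limma). Ndufc1 and Ndufs5, a pair of small complex I subunits, were also lower in the uterus. Ndufc1 was at 86.8, 87.9 and 92.7 FPKM in OC ovaries and at 50.2, 41.3 and 45.5 FPKM in OC uteruses (-0.97 ± 0.21 (SE), adjusted p = 0.0027 by limma), and Ndufs5 at 58.1 ± 7.04 and 29.2 ± 3.76 FPKM (SD, n = 3 each; -0.99 ± 0.29 (SE), adjusted p = 0.0184 by limma). Ndufs4, a regulatory subunit of complex I (-0.57 ± 0.17), Ndufa6 (-0.56 ± 0.20) and Ndufa4l2 (-0.45 ± 0.15; each ± SE) completed the 6. Higher in the uterus were Uqcrh, at 203 ± 6.29 against 328 ± 12.3 FPKM (SD, n = 3 each; 0.69 ± 0.15 (SE), adjusted p = 0.0035 by limma), and Cox7a2l, at 153 ± 6.23 against 199 ± 12.6 FPKM (0.38 ± 0.10 (SE), adjusted p = 0.0118 by limma). In each of these 8 genes but Cox4i2 the absolute log2 fold change was under 1. Without the OT1 mouse, which contributes to the estimate of the spread, 8 members were higher (10.1%, against 22.7% of all genes) and 21 lower (26.6%, against 23.8%). A fit of the 6 OC libraries alone, added after seeing the data, gave 7 (8.75%, against 22.7%) and 24 (30.0%, against 23.8%). With equal totals 1 was higher (1.27%, against 11%) and 19 were lower (24.1%, against 27.0%), at a median of -0.23 where that of all genes was -0.17. Without OC1, OC2 or OC3 1 was higher and 2 were lower each time, where 8.89% to 11.6% and 11.2% to 13.4% of all genes were called. The share of members called higher was thus below that of all genes in each of these fits, while that of members called lower was below or above it.

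**Figure D5:**
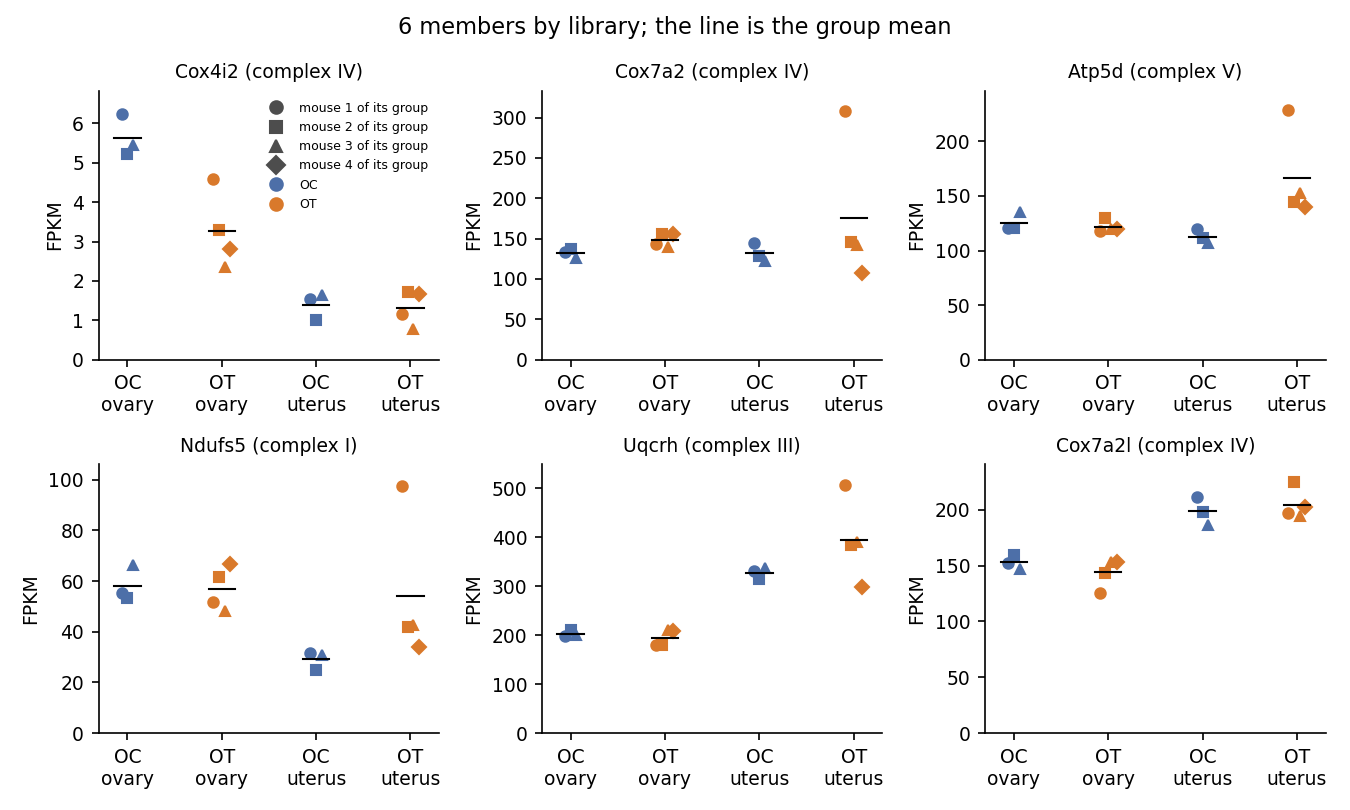
FPKM of 6 members in each library, with the shape giving the number of the mouse and the line the group mean. Cox4i2 and Ndufs5 are higher in OC ovaries than in OC uteruses, Uqcrh and Cox7a2l are higher in OC uteruses, and the OT1 uterus stands far above the other uteruses for Cox7a2, Atp5d and Ndufs5 but not for Cox7a2l.

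Within each mouse the median log2 difference of uterus over ovary over the members was 0.04, -0.11 and -0.23 in OC1 to OC3 and 1.10, 0.06, 0.26 and -0.14 in OT1 to OT4. OT1 was the highest of the 7 mice, OT2 and OT3 also lay above the 3 OC mice, and OT4 lay within their range.

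Paralog pairs kept a dominant partner in every library. The muscle isoform Cox6a2 held at most 0.444% of the summed FPKM with the liver-type subunit Cox6a1, and Cox6b1 held 95.2% to 98.2% with the testis isoform Cox6b2. The share of Ndufa4l2 with Ndufa4 was 5.46 ± 0.08% in OC ovaries and 3.07 ± 0.20% in OC uteruses (SD, n = 3 each). Of the 3 genes of subunit c, whose upstream sequences are printed above, Atp5g3 held 57.1 ± 1.65% in OC ovaries and 49.5 ± 3.12% in OC uteruses, and Atp5g2 18.1 ± 1.71% and 20.8 ± 2.90% (SD, n = 3 each). In the OT1 uterus Atp5g2 stood at 13.4% of the 3 genes, against 20.4% to 23.7% in OT2 to OT4. Of the isoforms that the rule left out, Cox8b held 30.0% of its pair with Cox8a in the OT1 uterus and at most 1.58% elsewhere, and Cox7a1 held 19.2% of its pair with Cox7a2, against 1.09% to 8.19% elsewhere.

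Other genes of the pathway were read from lists that share no member. Of all genes tested in the ovary, 2.6% rose and 1.91% fell at an unadjusted p of at most 0.05 by limma. In the ovary, 1 of 44 assembly factors rose and 1 fell (unadjusted p of 0.05 or less by limma), none of 14 enzymes of the citric acid cycle and none of 20 electron and nucleotide carriers passed in either direction, 1 of 78 proteins of the mitochondrial ribosome rose and 1 fell, and 2 of 13 regulators of mitochondrial biogenesis fell. The smallest p values in the ovary were those of Sdhaf4, an assembly factor of complex II (log2 fold change 0.35 ± 0.12), the ribosomal protein Mrps18b (0.42 ± 0.15) and Gabpa, the DNA-binding subunit of GABP (-0.17 ± 0.07; each ± SE). In the uterus the medians over the tested genes of these lists were 0.26 for assembly factors, 0.52 for citric acid cycle enzymes, 0.45 for carriers, 0.27 for the mitochondrial ribosome and 0.19 for regulators, against 0.44 for the members. Without OT1 they were 0.07, 0.26, 0.23, 0.08 and 0.06 in the same order, against 0.21 for the members. With all mice 3 of 45, 1 of 14, 1 of 20, 3 of 78 and 3 of 14 rose, and 1 regulator fell. Of all genes tested in the uterus, 5.15% rose and 3.05% fell. Without OT1 3, 2, 6, 5 and 2 rose, and 1 regulator fell, against 5.98% and 3.59% of all genes.

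The genes with the smallest p in the uterus were Tmem70, an assembly factor of ATP synthase (log2 fold change 0.53 ± 0.21), the mitochondrial isocitrate dehydrogenase Idh2 (0.47 ± 0.17), the adenine nucleotide carrier Slc25a4 (0.39 ± 0.16), the ribosomal protein Mrpl36 (0.61 ± 0.15) and the nuclear receptor Esrrg (1.72 ± 0.54; each ± SE). Esrrg lay at 0.114, 0.234 and 0.182 FPKM in OC uteruses and at 0.581, 0.523, 1.63 and 0.789 FPKM in OT1 to OT4, near the filter. Of the subunits outside the symbol rule, Cyc1, the cytochrome c1 of complex III, was at 54.3, 42.3 and 41.3 FPKM in OC uteruses and at 118, 50.2, 64.5 and 44.1 FPKM in OT1 to OT4 (0.49 ± 0.32 (SE), not passed). Ndufab1, the acyl carrier protein of complex I, was at 30.1, 22.7 and 22.2 FPKM in OC uteruses and at 74.9, 29.2, 35.4 and 25.4 FPKM in OT1 to OT4 (0.60 ± 0.35 (SE), not passed). In both genes OT1 alone was above 2-fold of the OC mean, as for most members.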

How the data were processed

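RNA was measured in the ovary and the uterus of 3 OC and 4 OT mice (rRNA-depleted total RNA, strand-specific). The authors trimmed reads with Skewer 0.2.2, aligned them to mm10 with STAR 2.5 and estimated levels with Cufflinks 2.2.1, and the deposited values are FPKM per gene. Fragment counts are unknown, so Cuffdiff, the test of the study, was not run. All 21853 identifiers were matched to symbols of GENCODE M21. Genes whose mean over the libraries of a fit reached 0.5 FPKM were tested on log2(FPKM + 0.1), a scale that understates changes of low genes, with limma 3.58.1 (R 4.3.3, trend) and two-sided p-values adjusted by Benjamini-Hochberg over all tested genes. Ovary and uterus were fitted separately for OT against OC, and together for the difference between the tissues and for uterus against ovary in OC mice. Python 3.11.15 with pandas 2.3.3 and matplotlib 3.10.9 was used for sums and plots. The test was checked on simulated data.

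The members and lists were chosen with earlier results of these data known. The rule for named genes took isoform and paralog members, and the highest and lowest mean of each complex among members tested in either tissue. For OT against OC it took the 5 members a direction with the smallest p in each tissue. Between tissues in OC mice it took the 5 a direction with the largest called difference. For the difference of the OT effect it took the 3 a direction with the smallest p. Any member past the DEG cutoffs, subunits outside the symbol rule, and the gene with the smallest p of each pathway list were also taken. Other members named for a call or for a fold in an OT uterus, and the promoters printed, were chosen after their values were seen. An ovary and a uterus of the same number and group were taken, from their labels, to come from the same mouse. Their deviations from the group means correlated at a mean r of 0.156 (0.0904 to 0.265, 7 pairs), against -0.0594 for other numbers (-0.274 to 0.273, 18 pairs). These ranges overlapped, so the values do not settle the pairing. The alternatives were another pseudocount (1 or 0.01), no filter, scaling to equal totals or by the median ratio, a robust variance estimate, a fit of all libraries, blocks and leaving out each mouse.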

Additional observations from a re-analysis of the deposited data

Results flagged for a closer look

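Each group of 4 OT libraries was checked for a library far from the other 3 with Dixon's ratio, the gap to the nearest value over the whole range, against its 95% critical value. Of 76 groups, 11 had such a library, and groups of 3 were not tested. The groups share the same libraries, the sums hold genes also checked singly, and some genes were named for a small p. The number of flags therefore cannot be set against a rate expected by chance. In 9 of the 11 it was the OT1 uterus. There the summed level of complex II was 653 FPKM, and Cox4i1 was at 877, Cox6b1 at 676, Atp5k at 560, Atp5d at 229, Sdhd at 202, Uqcrc2 at 122, Ndufs5 at 97.5 and Ndufs4 at 38.4 FPKM, each above the other OT uteruses. The remaining 2 were in the ovary, with Uqcrc2 at 61.6 FPKM in OT2 and Atp5k at 353 FPKM in OT4.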

How the results depend on the processing

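FPKM without fragment counts gives no counting error, and 3 or 4 mice a group limit the precision. In the ovary, fitting all 14 libraries left 0 members higher (0.886% of all genes). OC and OT libraries of the same number are different mice. Their deviations correlated at a mean r of 0.152 between ovaries and 0.0178 between uteruses. A replicate block by number, without OT4, gave 4 members lower for the ovary (5.0%, against 2.57% of all genes) and 54 higher for the uterus (68.4%, against 9.69%), where leaving out OT4 without the block gave 33. A fit of all 14 libraries gave 38 higher for the uterus. Between the tissues, a replicate block by mouse gave 4 members with a larger OT effect in the uterus instead of 6. For uterus against ovary in OC mice, equal totals gave 1 member higher, 19 lower and a median of -0.23, and the 6 OC libraries alone, chosen after seeing the data, gave 7 higher and 24 lower. Leaving out 1 mouse at a time gave 1 to 3 members higher for the ovary (2.0% to 3.54% of all genes). There 1 to 3 were lower (1.52% to 2.36% of all genes). In the uterus 0 to 33 were higher (2.91% to 7.97% of all genes). A larger OT effect in the uterus was called for 1 to 31 (1.77% to 5.27% of all genes). Between the tissues in OC mice 1 to 8 were higher (8.89% to 22.7% of all genes) and 2 to 21 lower (11.2% to 23.8%). The sign of 4 members near 0 in the uterus turned in some settings. With 1 mouse left out, Atp5s ranged from -0.15 to 0.047, Cox4i2 from -0.31 to 0.11, Cox6b2 from -0.13 to 0.17 and Cox7a2l from -0.0038 to 0.088, while Cox6b2 was at 0.17 with the block and Cox7a2l at -0.10 with equal totals. Equal totals moved the median of all genes by over 0.1 in the uterus, to -0.13. The cause of these changes was not tested. Of the other values for single members, 422 kept their side of the threshold, 31 passed it only in the alternative and 56 only in the fit reported.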
